A study of Gossypium herbaceum with 12 samples.

Results

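The roots of RAHS-14, a drought-sensitive genotype of the diploid cotton Gossypium herbaceum, were compared under drought and under watering. The comparison took every array whose title gives the sensitive genotype, 3 of droughted and 3 of watered roots, which is 6 of the 12 arrays of the study. The other 6 hold Vagad, a tolerant genotype, grown in the same way. All plants were 1 month old, grown for 4 weeks in a glass house with 16 h of light and 8 h of dark in earthen pots. Drought meant that water was held back with soil moisture under 30%, and by the labels the watered plants were irrigated daily. The labels and the paper's methods give different watering schedules for the droughted pots, so the exact schedule and length of the treatment are not settled here. The 3 pots of each RAHS-14 group stand for separate plants. By their labels the groups differ only in water supply.

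Each array was an Affymetrix Cotton Genome array, on which a probe set, a group of short oligonucleotides for 1 transcript, gives an intensity on a linear scale that was set by the authors so that all arrays share the same trimmed mean. Of 24132 probe sets, 103 are Affymetrix controls, and 24029 were tested. Intensities under 16 were raised to 16, called the floor here, before log2 was taken. A probe set was called when limma gave a Benjamini-Hochberg adjusted p under 0.05 over all 24029 and the groups differed by 2-fold or more. A fold against a group whose 3 arrays all lie at the floor is written as a lower bound. In probe set names the point after the leading letters (Ghi, GhiAffx, Gra, GraAffx or GarAffx) is left out, and genome positions were not used here.

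Roots meet drying soil first. As background, plant cells losing water make abscisic acid, the hormone that closes stomata and switches on protective genes, and they accumulate proline and sugars that hold water in the cell. They also make chaperones, the heat shock proteins, which keep other proteins folded. Growth slows at the same time, and enzymes that loosen the cell wall, such as xyloglucan endotransglucosylases, are among the genes known to follow growth, touch and hormones.

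The 6 arrays separated by treatment. Over all tested probe sets the arrays of 1 group correlated at r between 0.992 and 0.994, and arrays of different groups at r between 0.977 and 0.980. The median SD of log2 values within a group was 0.094 in watered and 0.084 in droughted roots, over the 8750 probe sets with a mean log2 intensity above 8. Median intensities lay between 67.5 and 74.7, and 25.6% to 29.8% of the probe sets of an array were at or under the floor. The 3′ to 5′ ratio of the ubiquitin control, a measure of how far transcripts were degraded or shortened, was 3.91 to 4.76 in watered and 3.02 to 3.7 in droughted roots, and that of the ss1 control was 4.95 to 8.2 and 3.7 to 4.26. Both ratios moved with the treatment, the actin ratio overlapped between groups (12.5 to 20 against 17.4 to 19.6), and the part of RNA quality in the results was not tested. Fewer cells of a type and less RNA per cell cannot be told apart in whole roots.

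Drought changed the level of 1098 probe sets. Of these, 483 were higher, which is 2.01% of those tested, and 615 were lower, 2.56%, so that 4.57% were called in either direction. The median fold was 2.51 among the higher probe sets (quartiles 2.21 and 3.32) and 2.6 among the lower ones (quartiles 2.25 and 3.49). Larger changes were few. Past 4-fold there were 81 higher and 107 lower probe sets, and past 8-fold 24 and 22. In 191 of the higher and 249 of the lower probe sets, the dimmer group was under 100 on all 3 arrays, and in 151 and 153 the brighter group was at 1000 or more on all 3. The dimmer group was at or under the floor on all arrays in 17 and 28. The groups did not overlap in any of the 1098, and they also did not overlap in 6763 of the 22931 probe sets that were not called. A further 3110 probe sets passed the adjusted p but differed by less than 2-fold, and 197 differed by 2-fold or more without passing it. When all 12 arrays of both genotypes shared 1 estimate of spread, 54 were higher and 70 lower. That fit takes in 2 droughted Vagad arrays whose median intensities stood apart, at 323 and 346.

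**Figure D1:**
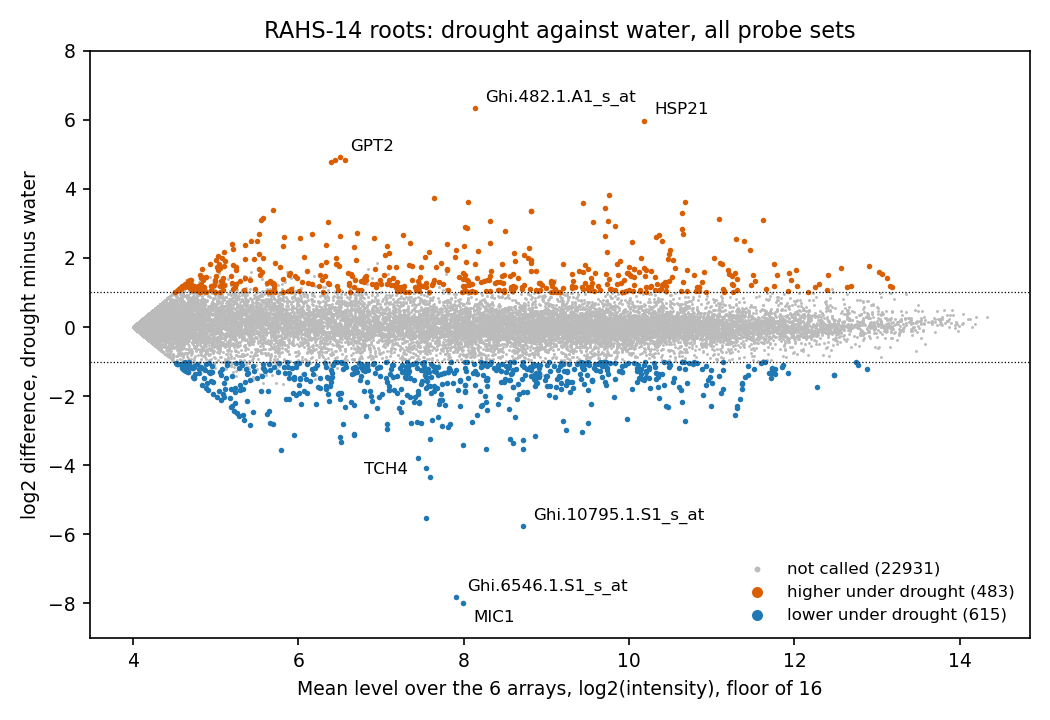
The mean level over the 6 arrays (log2 intensity, floor of 16) on the x axis against the log2 difference of drought minus water on the y axis, with 1 point per probe set and dotted lines at a 2-fold change. The 483 higher and 615 lower probe sets reach across all levels, and 4 of the lower ones fall clear of the rest.

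The array was built mostly from other cotton species, which bears on what it could see. Probe sets of G. hirsutum, the tetraploid upland cotton, numbered 16800, and 2.15% were higher and 3.33% lower. Of 7068 from the diploid G. raimondii, 1.61% were higher and 0.736% lower. All 6 arrays were at or under the floor for 11.8% of the G. hirsutum and 23.5% of the G. raimondii probe sets.

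A usable gene name could be given to 600 probe sets. Of these, 15% were higher and 8.83% lower, against 2.01% and 2.56% of all tested. The list counts below stand beside those shares. The names are those of the best match in the study's tables, mostly an Arabidopsis gene, and a name taken from a list entry without a paired match is written as "listed as". Those tables held probe sets that had differed between the genotypes, chosen on these same arrays, so that names are not spread evenly. Of 363 named only through the drought table of RAHS-14 (higher there than in Vagad), 69 rose and 4 fell here, and of 84 named only through the matching watering table, 2 rose and 30 fell. Counts of named genes by direction are therefore no independent evidence of that direction, and each list is given as counts beside the values of its members. The lists come from a search for words in the names, so that some hold members of another class and some miss members of their own. The lists also overlap, so that their counts are not separate. GPT2 stands under starch and transport, CBF4 under dehydration and transcription factors, and NRT1.5 under transport, nitrogen and root markers. Among all tested probe sets the median log2 difference was 0.00.

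Heat shock proteins and chaperones held the highest median of the lists. Of 22 probe sets, 13 were higher, 0 were lower and 9 were not called, with a median log2 difference of 1.31. The word search left out a probe set listed as the prefoldin subunit PDF6 (Ghi6473.1.S1_at), part of a chaperone, which was 20.4-fold lower. Of the 22, 15 came only from the drought table of RAHS-14. HSP21, a small heat shock protein of the chloroplast and other plastids in Arabidopsis, had intensities of 115, 143 and 191 in the 3 watered roots and 8952, 9295 and 9332 in the droughted ones. It was dim on every watered array and bright on every droughted one (62.9-fold, log2 difference 5.98 ± 0.20 SE, limma adjusted p = 4.24e-04). In watered Vagad roots the same probe set stood at 78.6, 45.8 and 52.2.

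Other small heat shock proteins followed. HSP22.0, which Arabidopsis places in the endoplasmic reticulum, stood at 226, 226 and 238 under watering and 3233, 3184 and 3266 under drought, 14-fold higher (limma adjusted p = 1.82e-05). A class I small heat shock protein of the cytosol (GhiAffx2754.1.A1_at) went from 297, 283 and 305 to 2481, 2473 and 2487, which is 8.41-fold (limma adjusted p = 3.85e-05). The 3 droughted values of each lie close together, far from the watered ones. HSP23.6-MITO, a mitochondrial member, was 5.39-fold higher, and HSP18.2 (GhiAffx34159.1.A1_a_at), already bright in watered roots at 3218 to 3511, rose 3.28-fold to between 10401 and 11351. A second HSP18.2 probe set (Ghi9308.1.S1_at) had a log2 difference of 1.16. A second HSP21 probe set (GhiAffx11624.1.S1_s_at) rose 2.75-fold, from 92.3 to 123 up to 262 to 313.

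The large ATP-driven chaperones changed too. HSP70 (Ghi10640.1.S1_s_at) stood at 283, 244 and 237 in watered and 2756, 2773 and 2735 in droughted roots, 10.8-fold higher (limma adjusted p = 1.68e-04). HSP90.1, the heat-inducible cytosolic HSP90 of Arabidopsis, went from 72.6, 81.6 and 72.2 to 880.2, 1129 and 804, 12.3-fold higher (limma adjusted p = 5.71e-04). HSFA2, a heat shock transcription factor that keeps such genes active in Arabidopsis, rose 4.6-fold from 147, 118 and 139 to 643, 580.5 and 632 (limma adjusted p = 6.98e-04). Chaperones that also fold proteins in unstressed cells had smaller folds, a difference between genes that was not tested. CPN60B, a plastid chaperonin subunit, was 2.21-fold higher, while CPN20 differed by 0.86 and a probe set listed as the related CPN60A by 0.38 on the log2 scale, both under 2-fold. HSC70-1, the constitutive cytosolic HSP70, had a log2 difference of -0.80 (adjusted p = 0.0301) and was not called.

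Starch and sugar genes also held many higher probe sets. Of 23 probe sets, 11 were higher, 0 were lower and 12 were not called, and the median log2 difference was 0.92. Of the 23, 21 came only from the drought table of RAHS-14. GPT2, which carries glucose 6-phosphate into plastids, was at or near the floor under watering, at 5.39, 17.4 and 10.8, and at 607, 431 and 479.6 under drought. That is 30.4-fold on the floored scale (log2 difference 4.93 ± 0.14 SE, limma adjusted p = 3.00e-04). A second GPT2 probe set (GhiAffx13472.1.S1_at) was bright already under watering, at 481 to 539, and rose 2.09-fold, a call lost when any array but droughted replicate 3 was left out (adjusted p up to 0.0635, and a log2 difference of 0.91 without droughted replicate 1).

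Probe sets of several enzymes that make starch in the plastid rose as well. APL3, a large subunit of the ADP-glucose pyrophosphorylase that makes the building block of starch, stood at 286, 237 and 272 in watered and 2201, 2062 and 2257 in droughted roots, 8.23-fold higher (limma adjusted p = 2.70e-04). A starch synthase (Ghi9768.1.S1_s_at), which adds that glucose to the chain, went from 4891, 4775 and 4794 to 13682, 14554 and 15144, 3-fold higher (limma adjusted p = 2.42e-04). SBE2.2 (GhiAffx27934.1.S1_at), a branching enzyme, rose 6.03-fold from 391 to 635 up to 2892 to 3363, while its second probe set (GhiAffx734.1.S1_at) had a log2 difference of 0.92 (adjusted p = 0.0109) and was not called. ISA1, the isoamylase that trims misplaced branches, rose 2.85-fold. A putative granule-bound starch synthase (Gra1394.1.A1_s_at, log2 difference 0.51, adjusted p = 0.224) was not called.

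Probe sets of several enzymes that take starch and its products apart rose beside them. A plastid alpha-glucan phosphorylase (Ghi9069.1.S1_s_at), which releases glucose 1-phosphate from glucan chains, went from 3942, 4469 and 3966 to 14237, 14160.2 and 14047, 3.43-fold higher (limma adjusted p = 3.69e-04). Another glucan phosphorylase (GraAffx1885.1.S1_x_at) rose 7.58-fold, from 286 to 379 up to 2272 to 2706. DPE1 and DPE2, the plastid and cytosolic glucanotransferases that rework maltose and its chains, rose 3.62-fold and 2.31-fold. SEX1, the glucan water dikinase that starts starch breakdown, differed by -0.08 on the log2 scale (adjusted p = 0.932). ALDH11A3, an NADP-dependent glyceraldehyde 3-phosphate dehydrogenase, rose 2.28-fold from 991, 867 and 912 to 2118, 2064 and 2123 (limma adjusted p = 7.36e-04). The glycolytic enzymes GAPC2 (0.83), GAPCP-2 (-0.27) and the cytosolic glucose 6-phosphate isomerases (0.32 and 0.74) had log2 differences under 1 and were not called, and neither was the sucrose synthase SUS1 (0.47).

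**Figure D2:**
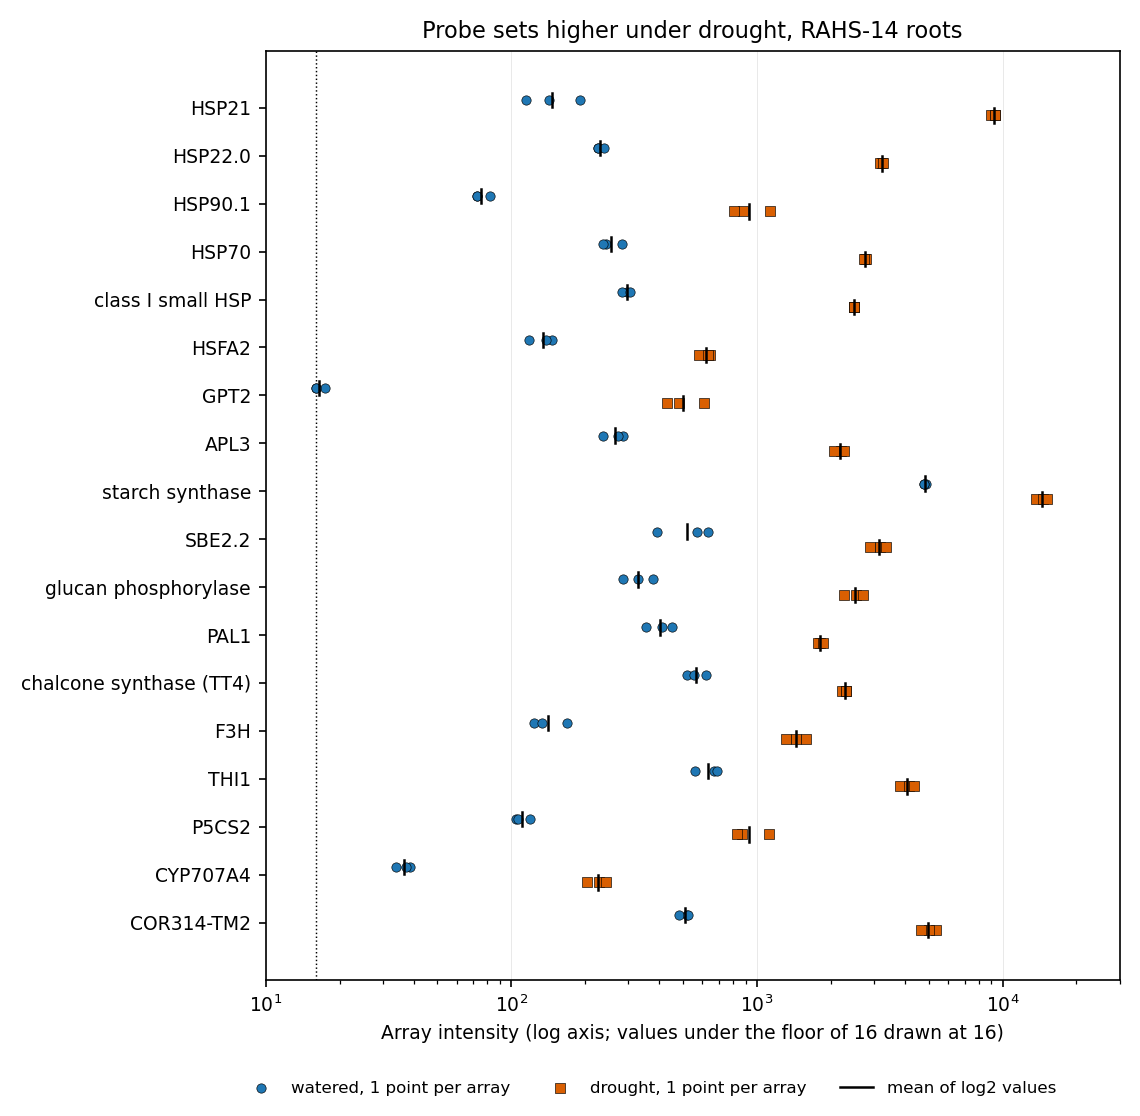
Intensity on each array (x axis, log scale, values under 16 drawn at 16) of 18 probe sets that were higher under drought, with circles for the 3 watered and squares for the 3 droughted RAHS-14 roots and a bar at the mean of the log2 values. In every row the 3 droughted points lie to the right of the 3 watered ones, and HSP21 shows the widest gap, from 115 to 191 up to 8952 to 9332.

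Phenylpropanoid and flavonoid genes were mostly higher. These make lignin precursors, flavonols and the tannins and anthocyanins of cotton. Of 16 probe sets 11 were higher, 1 lower and 4 not called, with a median log2 difference of 1.22, and 15 of the 16 came only from the drought table of RAHS-14. PAL1, phenylalanine ammonia lyase at the entry to the pathway, rose 4.5-fold from 452, 354 and 409 to 1801, 1780.1 and 1860.2 (limma adjusted p = 7.26e-04). 4CL3, the coenzyme A ligase that feeds flavonoids in Arabidopsis, rose 3.82-fold. C4H, the hydroxylase between these steps, had a log2 difference of 0.64 (adjusted p = 0.0346) and was under 2-fold.

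All 4 chalcone synthase probe sets (TT4), the first flavonoid step, were higher. That of Ghi2516.1.S1_s_at stood at 622, 519 and 557 in watered and 2213, 2309 and 2311 in droughted roots, 4.04-fold higher (limma adjusted p = 4.95e-04). The brightest, Gra2508.1.A1_x_at, went from 5876, 6094 and 6257 to 13852, 13519 and 13886, 2.26-fold higher (limma adjusted p = 1.96e-04). The names do not show whether the 4 read separate genes or copies that share probes. F3H (Gra2794.2.S1_s_at), flavanone 3-hydroxylase, rose 10.3-fold from 124, 168 and 133 to 1441, 1315 and 1585 (limma adjusted p = 6.28e-04), while the other F3H probe set (Ghi7987.1.S1_s_at), far brighter at 5832 to 6769.6 under watering, had a log2 difference of 0.88. TT7, flavonoid 3′-hydroxylase, rose 2.38-fold, and a leucoanthocyanidin reductase (GarAffx38922.1.S1_s_at), which makes tannin units, 2.93-fold. AN11, a WD-repeat regulator of anthocyanin genes in petunia, rose 3.32-fold. Of the cinnamyl alcohol dehydrogenases, which make lignin precursors, Gra123.2.S1_s_at was higher at a log2 difference of 1.10, and CAD9 differed by -0.81 (adjusted p = 0.0468) and was not called. The 1 lower member was a dirigent-related protein (GhiAffx53241.1.S1_at), a class that guides lignan coupling, which fell from 534, 523 and 540.1 to 161, 216 and 176.

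Thiamine synthesis gave 4 higher probe sets. Thiamine, vitamin B1, serves as cofactor of central carbon enzymes. The other 2 of the 6 were not called, and the median log2 difference was 1.22. All 3 probe sets of THIC, which makes the pyrimidine part of the vitamin, rose between 2.32-fold and 3.54-fold, and the brightest 2 were at 1554 to 2051 under watering and 3539 to 4524 under drought. THI1, which makes the thiazole part, split by probe set. That of Gra2938.2.A1_at rose 6.46-fold from 666, 559 and 685 to 3829, 4144 and 4341 (limma adjusted p = 4.99e-04), whereas the other THI1 probe sets differed by -0.16 and -0.14 on the log2 scale and were not called.

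Genes named for dehydration and abscisic acid split evenly, 3 of 16 probe sets higher, 3 lower and 10 not called, at a median log2 difference of -0.19. P5CS2, a rate-controlling enzyme of proline synthesis, stood at 105, 119 and 107 in watered and 867, 828 and 1115 in droughted roots, 8.44-fold higher (limma adjusted p = 6.96e-04). CYP707A4, the 8′-hydroxylase that breaks down abscisic acid, rose 6.15-fold from 38.7, 34 and 37.1 to 204, 228 and 244 (limma adjusted p = 4.24e-04). COR314-TM2, of the cold-regulated COR413 membrane proteins, rose 9.81-fold from 517, 482 and 526 to 5338, 4999 and 4635 (limma adjusted p = 1.44e-04). These 3 sat well apart from the watered values on every array.

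Other drought genes of that list fell or stayed under the threshold. CBF4, in Arabidopsis an activator that drought induces, went from 103, 104 and 101 to 13.7, 16.8 and 24.1, 5.51-fold lower (limma adjusted p = 0.00238). An AP2 protein matched to a DRE-binding factor (GhiAffx60792.1.S1_at) fell 2.28-fold, and a BURP domain protein (Gra2038.1.A1_s_at) fell 3.51-fold, while another (Ghi5854.1.S1_at) differed by -0.44 (adjusted p = 0.0994). The 2 probe sets of RD22, a dehydration-responsive BURP gene, had log2 differences of -0.35 and -0.55, and a probe set listed as ERD9, a gene responsive to drying, -0.61, all under 2-fold. HVA22A (-0.01, adjusted p = 0.998) and the probe sets listed as osmotin (0.21, adjusted p = 0.332) and osmotin-like protein (0.57, adjusted p = 0.0208) were not called.

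Water channels, the aquaporins that let water cross membranes, were not called, 0 of 5 by limma, and 2 of the 5 had an unadjusted p under 0.05. PIP1C had a log2 difference of 0.58 (adjusted p = 0.00148), at 2316 to 2497 under watering and 3503 to 3659 under drought, with no overlap but under 2-fold. PIP2;4, bright in all roots at 3471 to 4592, differed by -0.14 (adjusted p = 0.453). PIP2;8 differed by -0.66 (adjusted p = 0.0656), PIP1;4 by 0.73 (adjusted p = 0.237), and a probe set listed as a tonoplast intrinsic protein by -0.23 (adjusted p = 0.734). The array gives no protein level or gating of these channels.

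The largest fall was that of MIC1, a cotton gene known for its induction by the root-knot nematode Meloidogyne. Its probe set, Ghi6528.1.S1_at, stood at 3939, 4404 and 3875 in watered roots and at 12.8, 0.859 and 13.6 in droughted roots. It was bright on every watered array and under the floor on every droughted one, at least 254-fold lower (log2 difference -7.99 ± 0.06 SE on the floored scale, limma adjusted p = 1.82e-05). Watered Vagad roots held 1790.3, 1559.8 and 1525. It was the only 1 of 10 probe sets with a primer pair in the study's real-time PCR list to be called. The paper names this probe set among those raised by drought in Vagad. The primers that the study lists for it are shown 5′ to 3′, and their match to the measured transcript was not checked.
MIC1 forward: gcatccttcagccctacaatagc
MIC1 reverse: ggatatgagcttcggaggaaaatg

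The other 9 probe sets with primers were not called. The brightest was Ghi8158.1.S1_s_at, matched to a cyclopropane fatty acid synthase, at 7005, 7131 and 7016 under watering and 8489, 8315 and 8608 under drought, with no overlap but a fold of only 1.2 (limma adjusted p = 0.00158). An acidic endochitinase matched to lysozyme (Ghi6435.1.A1_at) differed by -0.20 on the log2 scale (adjusted p = 0.0571) and a proteasome-related protein (GhiAffx31372.1.S1_at) by 0.63 (adjusted p = 0.0626). The paper reports both, and GhiAffx60321.1.S1_x_at, as raised by drought in RAHS-14, by array and real-time PCR. Its array lists of RAHS-14 set that genotype against Vagad under the same water supply, which is not the contrast used here. Here GhiAffx60321.1.S1_x_at differed by 0.36 (limma adjusted p = 0.0249) and was not called. As lowered by drought in RAHS-14 the paper reports Ghi1092.3.S1_s_at, Ghi743.1.S1_at and Ghi3284.1.S1_s_at. In the contrast used here Ghi1092.3.S1_s_at fell 10.1-fold. Ghi743.1.S1_at differed by 0.25 on the log2 scale (limma adjusted p = 0.0377) and was not called. The value of Ghi3284.1.S1_s_at is not given here, so these results do not cover all of those probe sets.

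Beside MIC1, 3 probe sets without a usable name fell more than 32-fold. Ghi6546.1.S1_s_at went from 3610.3, 3681 and 3530.0 to 15.9, 15.7 and 13.9, at least 225-fold lower (limma adjusted p = 3.14e-07). Ghi10795.1.S1_s_at went from 3031, 3345 and 2952 to 56, 46.7 and 70.5, 54.5-fold lower (limma adjusted p = 3.06e-04). Ghi6472.1.A1_s_at, picked out after its values were seen, went from 1213, 1311 and 1294 to 21.4, 40.4 and 23.7. All 3 were well measured in watered Vagad, at 1139 to 1288, 1820.5 to 2325 and 448 to 706. A probe set listed as prefoldin subunit PDF6 (Ghi6473.1.S1_at), part of a chaperone for newly made actin and tubulin, fell 20.4-fold from 901, 884 and 826 to 52, 34.7 and 43 (limma adjusted p = 5.02e-04).

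Cell wall genes held several of the largest falls. Of 24 probe sets 8 were lower, 3 higher and 13 not called, with a median log2 difference of -0.34, and 13 of the 24 came only from the watering table of RAHS-14. TCH4, a touch-induced xyloglucan endotransglucosylase that cuts and rejoins wall polymers, had 4 probe sets, all lower. That of Ghi1127.2.A1_x_at fell 16.9-fold from 799, 809 and 706 to 45.8, 52.7 and 39 (limma adjusted p = 3.91e-04), and the others fell 11.5-fold, 10.2-fold and 7.06-fold. In watered Vagad the 4 probe sets lay between 60.9 and 237. A probe set listed as another xyloglucan endotransglycosylase (Gra377.1.S1_s_at) differed by -0.34 (adjusted p = 0.299).

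EXO, a brassinosteroid-induced protein of the cell wall that promotes growth in Arabidopsis, had 4 probe sets. That of GhiAffx18056.1.A1_s_at fell from 487, 489 and 428 to 60.1, 64.7 and 81, 6.87-fold lower (limma adjusted p = 8.61e-04), and Ghi1118.1.S1_s_at fell 6.75-fold. Ghi10089.1.S1_s_at fell 2.34-fold, and Gra744.1.S1_s_at differed by -0.34 on the log2 scale (adjusted p = 0.129). The skewed-growth relative sks5 fell 3.93-fold. The word search left out a probe set listed as an endo-1,4-beta-glucanase (GhiAffx56319.1.S1_at), an enzyme that cuts glucan chains of the wall. That probe set fell 8.3-fold from 1917, 2032 and 2044 to 269, 214 and 242 (limma adjusted p = 3.58e-04). The 3 probe sets of the cell wall list that rose were the expansin-like EXLB1 (4.07-fold), UGE2, which makes UDP-galactose (3.67-fold), and a hydroxyproline-rich glycoprotein (2.8-fold). The other hydroxyproline-rich glycoproteins differed by -0.89 and -0.15 on the log2 scale and were not called.

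The list of transcription factors held 30 probe sets, of which 9 were lower, 3 higher and 18 not called, with a median log2 difference of -0.39. The word search also took in the vesicle fusion protein ALPHA-SNAP2, a putative protein kinase matched to a Myb-binding protein, and 4 RING finger proteins, a class known mostly for ubiquitin transfer. One of the 9 lower calls was such a RING protein (Ghi8611.2.A1_at, 2.1-fold), and its call was lost under 6 of the 18 alternatives, 4 of which leave out 1 array (watered replicate 2, at a log2 difference of -0.98, or watered replicate 3, droughted replicate 1 or droughted replicate 3, at adjusted p of 0.0567, 0.056 and 0.0543). RRTF1, a redox-responsive ethylene response factor, had 2 probe sets. GhiAffx15854.1.S1_at went from 209.8, 169 and 195 to 15.1, 6.92 and 10.2, at least 11.9-fold lower (limma adjusted p = 2.04e-04), and Ghi9720.1.S1_at from 86, 84.6 and 103 to 0.954, 2.92 and 1.3, at least 5.67-fold lower (limma adjusted p = 4.25e-04). Both went to the floor on all droughted arrays, and both stood at the floor in watered Vagad too.

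ATAF1 (GhiAffx58305.1.S1_s_at), a NAC factor of stress and abscisic acid responses, fell 10.8-fold from 856, 818 and 830.2 to 90.9, 74.2 and 68.7 (limma adjusted p = 4.24e-04). A second ATAF1 probe set (Ghi3264.1.S1_s_at) differed by -0.28 (adjusted p = 0.236). WRKY40, a repressor in abscisic acid and defence signalling, was picked out after its values were seen and fell 5.99-fold from 296, 254 and 279 to 54, 33.7 and 53.8 (limma adjusted p = 0.0038). One WRKY70 probe set (GhiAffx2014.1.S1_s_at) fell 2.53-fold and the other (Ghi9193.2.S1_s_at) differed by -0.46 (adjusted p = 0.0614). WRKY15 and WRKY46 were not called. The 3 factors that rose were HSFA2, the homeodomain protein ATHB-1 (2.07-fold, a call lost without any 1 array other than watered replicate 3, at log2 differences of 0.96 to 1.07) and MYB66, known as WEREWOLF, which sets hairless cell fate in the Arabidopsis root epidermis (2.82-fold, from 89.3, 64.4 and 82.2 to 199, 225 and 236).

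Calcium and kinase genes gave 0 higher, 4 lower and 34 not called of 38, with a median log2 difference of -0.07. At an unadjusted limma p under 0.05, with no fold minimum, 9 were higher and 9 lower. TCH2, a touch-induced calmodulin-like protein, fell 3.04-fold from 885, 805 and 767 to 294, 319 and 207 (limma adjusted p = 0.00883). A plasma membrane calcium ATPase (Ghi3763.1.A1_s_at), which pumps calcium out of the cell, fell 4.57-fold, and a sodium/calcium exchanger family protein fell 2.83-fold. A leucine-rich repeat kinase (Ghi6786.1.S1_at) fell 4.74-fold from 693, 639 and 614 to 139, 141 and 130.5 (limma adjusted p = 2.42e-04).

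**Figure D3:**
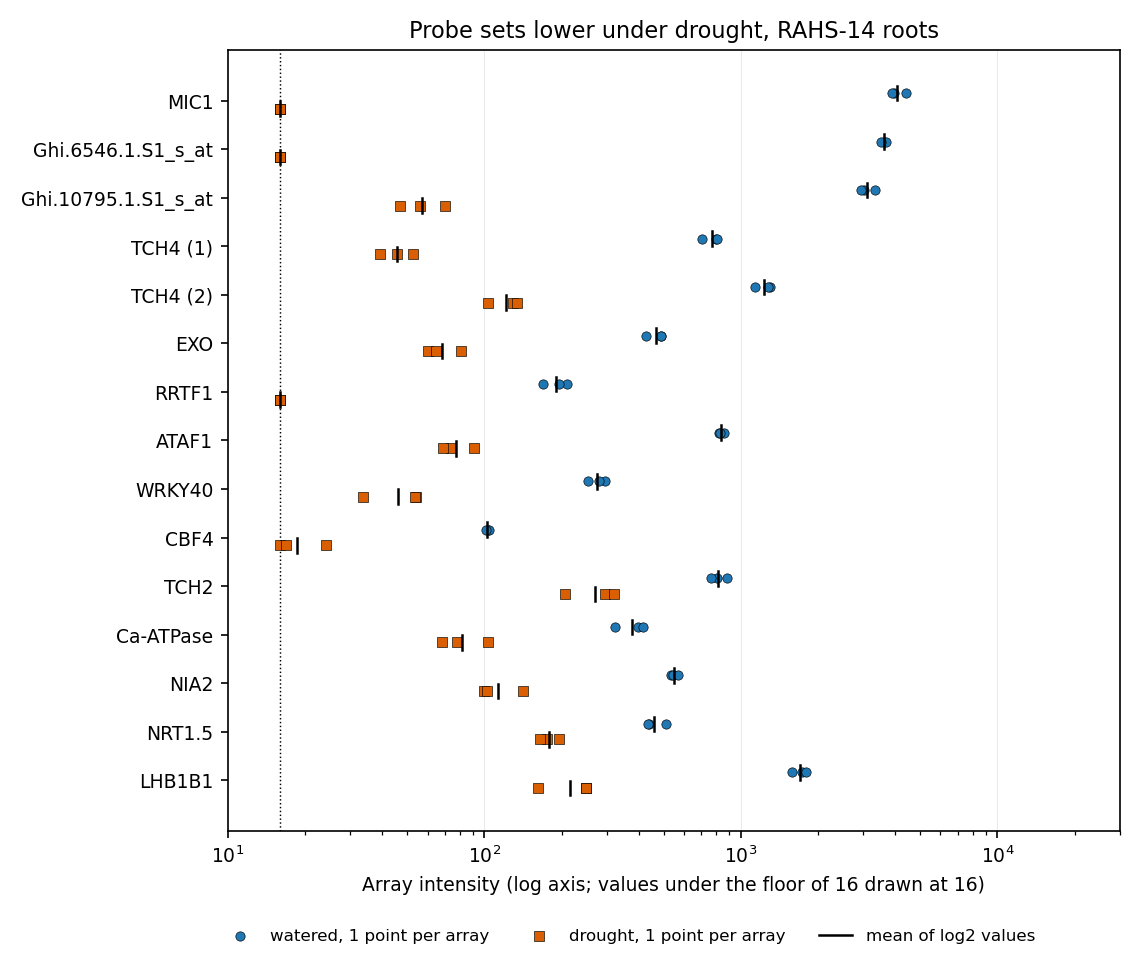
Intensity on each array (x axis, log scale, values under 16 drawn at 16) of 15 probe sets that were lower under drought, with circles for the 3 watered and squares for the 3 droughted RAHS-14 roots and a bar at the mean of the log2 values. TCH4 (1) is Ghi1127.2.A1_x_at and TCH4 (2) is Gra623.2.S1_s_at, and MIC1, Ghi6546.1.S1_s_at and RRTF1 sit at the floor on all 3 droughted arrays.

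Of the probe sets named for nitrate, 3 were lower and 1 was not called. NIA2, nitrate reductase, went from 534, 545 and 566 to 99.3, 142 and 102, 4.86-fold lower (limma adjusted p = 0.0022). NRT1.5, which loads nitrate into the xylem of the root, had 2 probe sets, both lower. Ghi3135.1.S1_at fell 2.58-fold from 438, 433 and 509 to 175, 164 and 196, and GhiAffx42527.1.A1_s_at fell 2.28-fold (limma adjusted p = 0.0186). That second call was lost when any array but droughted replicate 3 was left out (adjusted p between 0.0564 and 0.0721). The nitrate transporter NTP2, also matched to an oligopeptide transporter, went the other way, at 242, 252 and 215 under watering and 392, 386 and 416 under drought (log2 difference 0.75, limma adjusted p = 0.00471), with no overlap but under 2-fold. ASN1, a glutamine-dependent asparagine synthetase, rose 2.05-fold, but was under 2-fold without watered replicate 1 (log2 difference 0.98) or droughted replicate 1 (0.99). Over the list of amino acids and nitrogen, 2 of 19 were higher, 3 lower and 14 not called, with a median of 0.16.

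Transporters as a list were mostly not called, 3 of 32 higher, 3 lower and 26 not called, with a median of 0.11. ZIP5, a zinc transporter, rose 2.36-fold from 655, 542 and 617 to 1327, 1435 and 1509.9, and ZIP3 had a log2 difference of 0.84 with no overlap. SKOR, the channel that loads potassium into the xylem, differed by 0.34 (adjusted p = 0.22).

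Lipid genes went both ways, 7 of 27 probe sets higher, 4 lower and 16 not called, with a median of 0.40. GLIP1, a secreted GDSL lipase of Arabidopsis defence, went from 21.7, 3.21 and 14.4 to 605, 459 and 469.8, 28.6-fold higher on the floored scale (limma adjusted p = 5.05e-04). A probe set listed as phosphoethanolamine/phosphocholine phosphatase (GraAffx34131.2.S1_x_at) rose 12.4-fold from 493, 427 and 475 to 5681, 5748 and 5821 (limma adjusted p = 9.59e-05). XPL1, the methyltransferase that turns phosphoethanolamine into phosphocholine, rose 5.89-fold and 2.21-fold on its 2 probe sets. These enzymes act on the same pool of phospholipid head groups. The 4 that were lower were listed as fatty acid 9-hydroperoxide lyase (2.46-fold), LTP4 (Ghi5484.1.S1_s_at, 2.47-fold), triacylglycerol lipase (2.89-fold) and a nonspecific lipid transfer protein (6.86-fold). A second probe set listed as LTP4 (Ghi1619.1.S1_s_at) differed by -0.02 (adjusted p = 1).

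The largest rise of all was that of Ghi482.1.A1_s_at, called squalene monooxygenase in the text of the study, which went from 32.8, 24.6 and 37.7 to 2698, 2526 and 2396, 81.3-fold higher (limma adjusted p = 2.70e-04). Its own list entry is among the texts not used for naming here, so this name rests on the paper's text alone. The study's tables give the same name to Gra2985.2.S1_s_at, which went from 3.24, 3.5 and 5.15 to 92.2, 204 and 138, at least 8.59-fold higher (limma adjusted p = 0.00566). Squalene monooxygenase makes the epoxide from which plant sterols are formed. In watered Vagad the first stood at 10746, 8942 and 8254 and the second at 761, 1455 and 757, above droughted RAHS-14 in both cases. A probe set listed as selenium-binding protein SBP1 had the same order of groups, at 7.28, 2.87 and 2.9 under watering, 423, 399.9 and 506 under drought, and 1619, 1559 and 1574 in watered Vagad. That is at least 27.5-fold higher under drought in RAHS-14 (limma adjusted p = 1.44e-04).

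SAG29, in Arabidopsis the sugar exporter SWEET15 that rises with senescence and osmotic stress, went from 5.92, 16.7 and 6.9 to 449, 436 and 511, 28.6-fold higher on the floored scale (limma adjusted p = 8.32e-05). The other 4 senescence-associated probe sets were not called and had log2 differences between -0.45 and 0.25. Defence genes gave 2 of 9 higher and 2 lower, with a median of 0.01. A mannose-binding lectin (GhiAffx3185.1.S1_at) rose 5.49-fold from 422, 421 and 503 to 2441, 2622 and 2316, and AOC4, allene oxide cyclase of jasmonate synthesis, rose 2.3-fold.

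Genes of protein synthesis were mostly not called. Of 31 translation probe sets, 29 were not called, and the 2 higher ones were a chloroplast ribosomal protein S2 (2.13-fold, and just under 2-fold at a log2 difference of 1.00 without droughted replicate 2) and the release factor ERF1-1 (2.12-fold), with a median of 0.04. Protein turnover gave 4 of 34 higher and 1 lower at a median of 0.18. EGY3, a chloroplast protein related to proteases, rose 4.05-fold, the proteasome subunit PBG1 3.5-fold and the ubiquitin-conjugating enzyme UBC29 3.19-fold. The keyword search also took in 2 inhibitors that break down no protein, a protease inhibitor/lipid transfer protein that rose 3.64-fold and a probe set listed as a trypsin and protease inhibitor that fell 3.65-fold. Redox enzymes gave 3 of 15 higher and 0 lower with a median of 0.05. These were the glutathione transferase GSTU25 (2.84-fold, a call lost without watered replicate 3 at an adjusted p of 0.0509), a peroxidase (GhiAffx30835.1.S1_s_at, 2.53-fold) and the aldo/keto reductase ATB2 (2.3-fold). ATFER2, the iron store ferritin, stayed just under 2-fold at a log2 difference of 0.98, from 6221 to 6998 up to 11949.5 to 13966.

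The tissue label was checked with markers. Of 5 root markers MYB66 was higher, both NRT1.5 probe sets were lower, and ARSK1, a root-specific kinase, and SKOR were not called. All 5 were above the floor on every array. Of 10 markers of green tissue 3 were lower, 1 higher and 6 not called, with a median of -0.42. LHB1B1, a light-harvesting protein, went from 1730.2, 1576 and 1798 to 248, 162 and 249, 7.89-fold lower (limma adjusted p = 0.00202). RCA, Rubisco activase, fell 2.71-fold and PORA, a chlorophyll synthesis enzyme, 2.46-fold, while a probe set listed as the photosystem II protein CP43, a plastid-encoded gene, rose 3.07-fold. Genes of green tissue were thus measured in these roots and moved with the treatment in part, and their part in the other results was not tested.

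**Figure D4:**
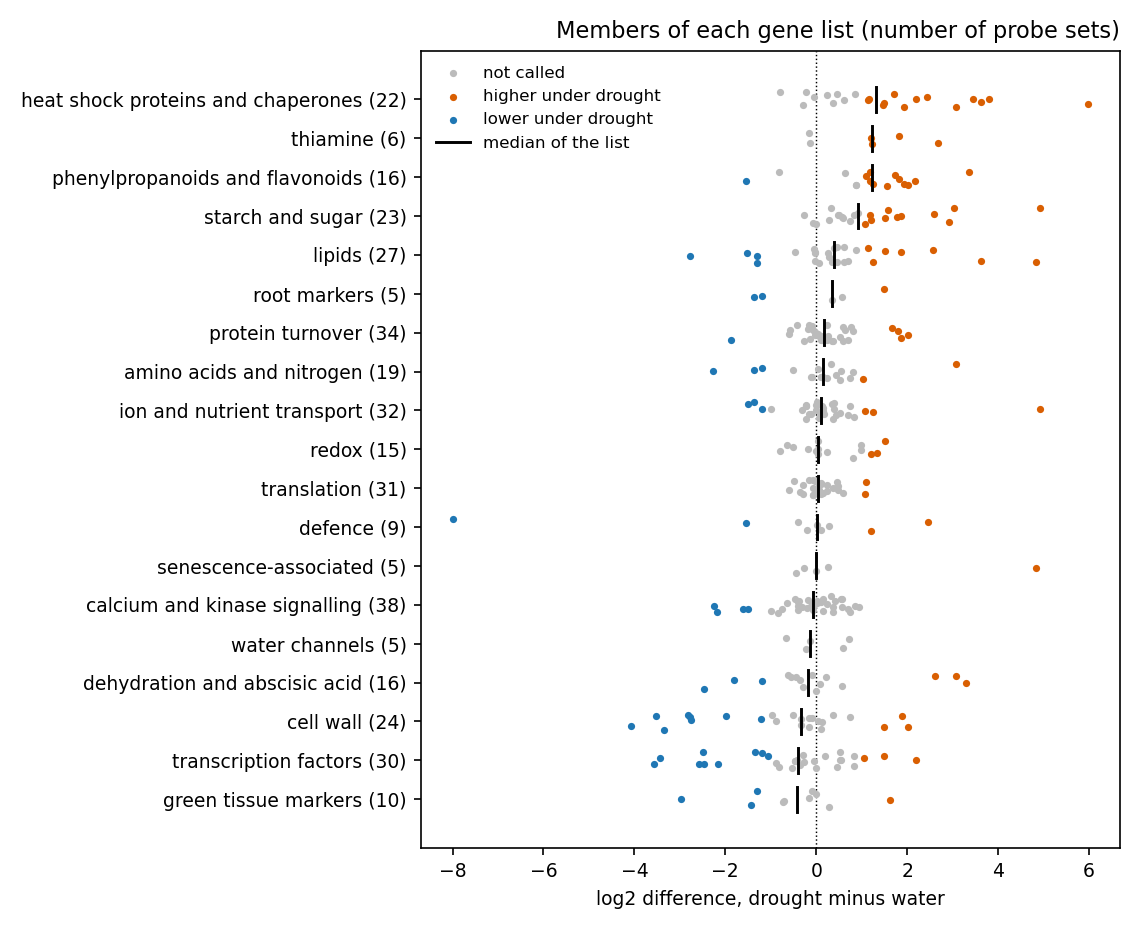
The log2 difference of drought minus water (x axis) for every member of the 19 gene lists (y axis, number of probe sets in brackets), with orange points higher, blue points lower and grey points not called, and a bar at each list's median. The highest medians are those of heat shock proteins (1.31), thiamine and phenylpropanoids (1.22 each) and starch (0.92), and the lowest that of the green tissue markers (-0.42).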

How the data were processed

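RNA of RAHS-14 roots was compared on 6 of the 12 arrays of the study. The deposited values are linear intensities, which the authors made with MAS5 (version not given in the sources used here) by scaling every array with 1 factor. Their 2% trimmed mean was 500.1 on every array. The paper's methods also name RMA, whose values were not used. Droughted Vagad arrays 1 and 2 stand apart, with medians of 323 and 346. Of the fits reported here, only that of all 12 arrays used them. Of 24132 probe sets, 103 controls were left out. Intensities were floored at 16, log2 transformed and fitted with limma 3.58.1 (R 4.3.3; lmFit, eBayes). No filter, further normalization or block was used. Tables and plots were made with Python 3.11.15, pandas 2.3.3, numpy 2.4.6, scipy 1.17.1 and matplotlib 3.10.9. The code was tested on simulated data. No scan date or batch is given in the sources used here, and the number of arrays limits the precision.

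Of 543 probe sets that the study's tables pair with a match, 475 got a usable name; 125 more have a list entry that no other probe set carries, and 669 have only a locus symbol in the platform table. Texts of 297 others, carried down or shared between rows, were not used. The members and the 19 lists were chosen with earlier results of these data known, and 1 search word that had matched part of another word was corrected after the values were seen. Named were the 15 largest called changes in each direction with a name, up to 4 members of each list with the smallest p, the 3 largest in each direction whatever their name, and probe sets with primers; the further list members given were picked after their values were seen.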

Additional observations from a re-analysis of the deposited data

How the results depend on the processing

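Without a fold minimum 2065 probe sets were higher and 2143 lower, and with a 4-fold minimum 81 and 107. With all 12 arrays in 1 fit, 54 were higher and 70 lower, and 31 of the 72 named calls were made; that fit takes in the 2 droughted Vagad arrays that stand apart. With Vagad's watered arrays alone added (9 arrays), 506 and 636 were called. Leaving out 1 array at a time gave 369 to 425 higher and 511 to 537 lower, with 70 to 72 of the 72 named calls. Of the 483 higher and 615 lower calls, 298 and 426 stayed whichever of the 6 arrays was left out. Under the other settings, quantile normalization, median centring, a floor of 64, an offset of 16, the brighter probe sets only, array weights, a trended robust prior and the methods' t-test before and after Benjamini-Hochberg, counts ran from 349 to 558 higher and 462 to 723 lower. With the replicate number as a block, 269 were higher and 385 lower. Whether the numbers pair the pots is not settled. Same-numbered watered and droughted arrays deviated together at r of -0.029, -0.002 and 0.037, and differently numbered ones at -0.068 to 0.07. With 3 arrays per group these values cannot decide it. None of the 72 named calls reversed under the 18 settings run for each, and 62 held, wherever tested, under all but the 12-array fit. The 72 are the calls named by rule, and further list members given in the text are not among them. Of those, ATHB-1, GSTU25, the RING protein Ghi8611.2.A1_at and GPT2 on GhiAffx13472.1.S1_at lost their calls without some single arrays. Dim signals limit the rest: 3691 probe sets were at or under the floor on all 6 arrays.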

Other observations

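Probe sets that the study's tables do not name were called too. Of 669 with only a locus symbol, 23 were higher and 42 lower, 3.44% and 6.28%. The largest change among them was that of LOC107940910 (Ghi7874.1.S1_s_at), which went from 1416, 1390.4 and 1357 to 153, 144 and 169, 8.94-fold lower (limma adjusted p = 1.44e-04), and stood at 2719 to 2847 in watered Vagad. Of 22463 with neither text nor symbol, 350 were higher and 491 lower. The text gives these no role.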
